A study of Mus musculus with 20 samples.

Results

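The NF-kB and inflammatory response genes examined here were 40 named mouse genes: 5 NF-kB subunits, 8 inhibitors and feedback genes, 7 receptors, 5 adaptors and signal transducers, 2 inflammasome genes, 10 cytokines and effectors, and 3 IRF factors, out of 21938 protein-coding genes. They were chosen by name, and a peak was given to a gene when it overlapped the annotated gene body (GENCODE, GRCm38, the assembly also called mm10) extended by 20 kb on either side. A promoter peak overlapped the 1000 bp on either side of the gene's 5′ end. A distal peak lay in the window and touched no such interval around any annotated transcript start of any gene. The windows of Ccl3 and Ccl4 overlapped by 26772 bp, and a region in both counted once in totals.

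ChIP-Seq of the 3 histone marks H3K27ac, H3K4me1, and H3K4me3 had been done on lineage-depleted (Lin-) bone marrow cells of 4 genotypes, with 1 library per genotype and mark, so 12 peak lists were used. WT cells came from Ep300 fl/fl mice without Cre, Ep300Δ/Δ cells from Mx1-Cre Ep300 fl/fl mice, Tet2-/- cells from Ep300 fl/fl Tet2-/- mice, and Ep300Δ/ΔTet2-/- cells from Mx1-Cre Ep300 fl/fl Tet2-/- mice, all on the C57BL/6 background. All 4 groups thus carried the floxed Ep300 alleles, and per the methods mice of all 4 received poly(I:C). Poly(I:C) mimics viral double-stranded RNA and is itself a trigger of innate immune signaling, while Mx1-Cre is driven by an interferon-responsive promoter. The methods place experiments 2 weeks after poly(I:C) unless another time is named, and name none for the ChIP-Seq. The number of mice behind a library is not given in the sources used here. The labels give a purity above 80% for the Lin- cells, and peak lists cannot show the deletion of Ep300 or Tet2.

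NF-kB is a family of dimeric transcription factors that inhibitors of the IkB family hold in the cytoplasm. Ligands of Toll-like, IL-1, and TNF receptors act through adaptors such as MyD88, the IRAK kinases, and TRAF proteins to free the dimers, which then activate genes of cytokines, of chemokines, and of their own inhibitors. Ep300 encodes p300, an acetyltransferase that places H3K27ac, a mark of active promoters and enhancers. H3K4me3 marks promoters, H3K4me1 marks enhancers whether acetylated or not, and Tet2 oxidizes methylated cytosine.

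With 1 library per genotype and mark, no test was run, and counts of called peaks over the 40 genes are set beside the share of all protein-coding genes. The H3K27ac lists held 29659 peaks in WT, 22727 in Ep300Δ/Δ, 24539 in Tet2-/-, and 18327 in Ep300Δ/ΔTet2-/- cells, the H3K4me1 lists 90738 to 107392, and the H3K4me3 lists 25012 to 27807; read depth is unknown from peak lists. A q value above the stated threshold of 0.05 was held by 7.17% of the Ep300Δ/Δ H3K27ac peaks and by 0.780% to 0.900% in the other 3 H3K27ac lists. Among fixed markers, promoter H3K27ac was called in 5 to 6 of 10 stem and progenitor genes, in 0 of 5 B cell genes in every list, in 0 to 1 of 6 T cell genes, and in 2 to 3 of 5 erythroid genes. It was called at 3, 2, 1, and 1 of 5 monocyte and macrophage genes and at 2, 0, 0, and 0 of 6 neutrophil genes in WT, Ep300Δ/Δ, Tet2-/-, and Ep300Δ/ΔTet2-/- cells, in that order, and at 2, 1, 1, and 2 of 4 NK cell genes; Csf1r, Adgre1, S100a8, Ltf, Mmp9, and Cxcr2 were without it in all 4. Their part in the results below was not tested. Fewer cells of a type and less acetylation per cell cannot be told apart in such bulk samples.

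Most of the 40 genes had an acetylated promoter in all genotypes. A promoter H3K27ac peak was called at 34 of the 40 in WT, 32 in Ep300Δ/Δ, 32 in Tet2-/-, and 33 in Ep300Δ/ΔTet2-/- cells, beside 42.1%, 40.2%, 41.1%, and 38.3% of all protein-coding genes. Of 58 other genes of the pathway, 42, 40, 40, and 38 had one. H3K4me3 was called at the promoters of 38, 37, 38, and 37 members (56.7%, 57.8%, 57.1%, and 57.4% of all genes) and H3K4me1 at 34, 36, 34, and 37 (48.5%, 49.4%, 46.6%, and 49.2%). For H3K27ac, 30 members had a peak in all 4 lists, 6 in none, and 4 in some. The 33 members of Ep300Δ/ΔTet2-/- cells and these 30 include Tnip1, whose peak in that list had a q value above the stated threshold.

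**Figure D1:**
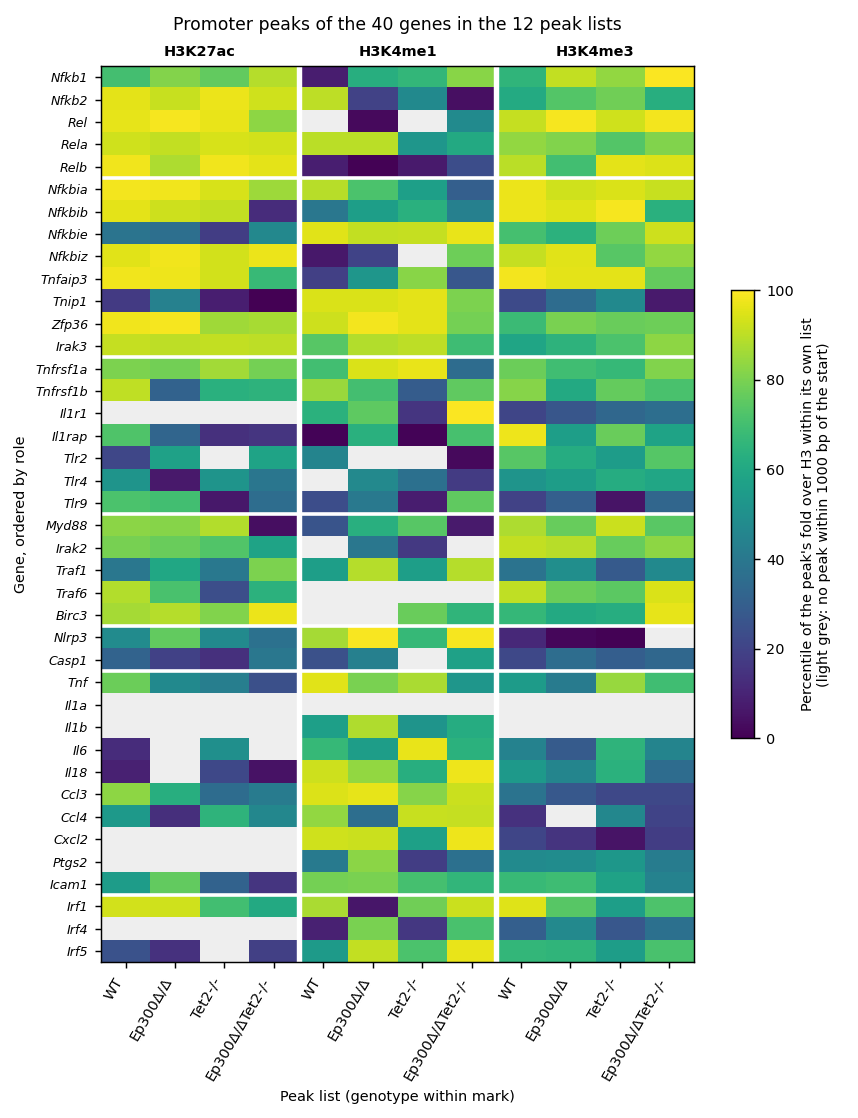
Promoter peaks of the 40 genes (rows, ordered by role) in the 12 lists (columns, genotype within mark). Color gives the percentile of the promoter peak's fold over H3 within its own list, and light grey means no peak within 1000 bp of the start; the H3K27ac block shows 30 filled rows, 6 empty rows (Il1r1, Il1a, Il1b, Cxcl2, Ptgs2, and Irf4), and 4 rows with a gap.

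The NF-kB subunits held H3K27ac at all 5 promoters in every list. Because the fold over H3 is scaled within a list, lists are compared by the percentile of a peak's fold among the peaks of its list. Relb, the partner of p52 in the noncanonical pathway, had a promoter peak of 38.3-fold in WT (percentile 98.0), 14.6-fold in Ep300Δ/Δ (87.6), 34.4-fold in Tet2-/- (98.0), and 28.2-fold in Ep300Δ/ΔTet2-/- cells (96.0). Rel, which encodes c-Rel, had 31.5-, 32.5-, 29.5-, and 14.6-fold in the same order (percentiles 96.4, 98.8, 96.8, and 83.0). Both therefore stood in the upper part of all 4 lists. Nfkb2 and Rela, which encode p100/p52 and p65, lay between percentiles 90.9 and 97.1 in every list, and Nfkb1, which encodes p105/p50, stood at percentiles 70.1, 81.5, 75.9, and 88.8. The Nfkb1 value in Tet2-/- cells came from a peak over the start, and those of the other lists from peaks after it.

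The inhibitors and feedback genes also had H3K27ac at all 8 promoters in every list, at levels that differed widely between genes. Nfkbia, which encodes IkBα, had 38.7-, 28.8-, 23.1-, and 15.9-fold in WT, Ep300Δ/Δ, Tet2-/-, and Ep300Δ/ΔTet2-/- cells (percentiles 98.0, 98.0, 93.8, and 85.5). Nfkbiz, which encodes the nuclear cofactor IkBζ, stayed between percentiles 93.0 and 98.0. Tnfaip3, the gene of the ubiquitin-editing enzyme A20, stood at percentiles 97.8, 97.5, 93.2, and 67.5, so the Ep300Δ/ΔTet2-/- list was the lowest. Nfkbib, which encodes IkBβ, also had its lowest value in Ep300Δ/ΔTet2-/- cells, with 29.7-, 18.3-, 19.5-, and 4.05-fold (percentiles 95.8, 92.3, 90.7, and 12.8). The strongest peak within 3000 bp of its start reached 4.45-fold there (percentile 19.1); its start lies within 1000 bp of that of Sirt2, so the peak cannot be given to either gene. Tnip1, which encodes an A20-binding protein, had weak peaks throughout (percentiles 16.9, 44.1, 8.47, and 0.0737), and Zfp36, whose product destabilizes cytokine mRNAs, had 38.0-, 31.2-, 15.8-, and 16.6-fold (percentiles 97.9, 98.5, 85.8, and 86.8). Nfkbie, which encodes IkBε, stood no higher than percentile 46.5 in any list, although a peak at percentile 64.7 lay within 3000 bp of its start in Tet2-/- cells, and Irak3 lay between percentiles 90.1 and 91.1 and hardly varied; its start lies within 1000 bp of that of Tmbim4.

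Promoter ranks were compared between lists over all genes with a peak in both. From WT to Ep300Δ/Δ cells the median change was -1.70 percentile points for the 32 members and -3.49 for all 8517 such promoters, and from Tet2-/- to Ep300Δ/ΔTet2-/- cells -4.35 for 31 members and -4.40 for all 8101. Single genes moved further. At a limit of 25 points, chosen after the values were seen, 8 of 32 members moved on the WT background, beside 15.3% of all promoters, and 8 of 31 on the Tet2-/- background, beside 21.1%. On the WT background 3 members rose that far (Tnip1, Tlr2, and Nlrp3), beside 3.24% of all, and 5 fell (Tnfrsf1b, Il1rap, Tlr4, Tnf, and Ccl4), beside 1023 of the 8517. On the Tet2-/- background 5 members rose (Nfkbie, Tlr9, Traf1, Traf6, and Casp1), beside 3.65% of all, and 3 fell (Nfkbib, Tnfaip3, and Myd88), beside 1417 of the 8101. For Myd88, the adaptor of most Toll-like receptors, the fall from percentile 88.5 in Tet2-/- to 3.57 in Ep300Δ/ΔTet2-/- cells rested on the window, since a peak at percentile 79.3 lay within 3000 bp of its start in the latter; its start lies within 1000 bp of that of Acaa1a, so the peak cannot be given to either gene. Within 3000 bp, Traf1 stood at percentiles 68.4, 87.1, 74.6, and 80.4, Nlrp3 at 78.6 in WT, and Nfkbie at 64.7 in Tet2-/- cells, so the rises of Nfkbie, Traf1, and Nlrp3 also rested on the window. Percentiles depend on how far down a list was called, and the lists differed in length. The ranks were therefore taken again within lists of equal length (the 18327 peaks of lowest q in each), an alternative chosen after seeing the data. Over all promoters, 691 then fell and 695 rose by 25 points from WT to Ep300Δ/Δ, and 857 fell and 759 rose from Tet2-/- to Ep300Δ/ΔTet2-/- cells, so the excess of falls depended on the length of the lists. Of 26 members with a peak in both lists on the WT background, 6 moved that far (17.8% of all), with Tnfrsf1b, Il1rap, and Tnf lower and Nfkb1, Nlrp3, and Icam1 higher. Of 27 on the Tet2-/- background, 6 moved (20.4% of all), with Nfkbib and Myd88 lower and Nfkbie, Tlr9, Traf1, and Traf6 higher. The members' median change became 1.80 and 2.21 points (-0.281 and -0.0859 for all), opposite in sign to the values within the whole lists.

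Among the receptors, Tnfrsf1b, which encodes TNF receptor 2, had a promoter peak of 20.3-fold in WT, 4.56-fold in Ep300Δ/Δ, 8.47-fold in Tet2-/-, and 9.03-fold in Ep300Δ/ΔTet2-/- cells (percentiles 90.4, 31.5, 63.6, and 64.5). WT was thus the highest list, and Ep300Δ/Δ the lowest. Tnfrsf1a, which encodes TNF receptor 1, varied less, between percentiles 78.6 and 86.2. Il1rap, the shared chain of IL-1 family receptors, had 10.7-, 4.62-, 3.89-, and 4.24-fold (percentiles 72.6, 32.8, 13.9, and 15.4). Tlr9, a sensor of unmethylated DNA, and Tlr4, the receptor of lipopolysaccharide, had a peak in every list, at percentiles from 6.36 to 71.7 and from 6.87 to 51.7. In these receptor rows the order of the lists differed from gene to gene.

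Promoter H3K27ac was called in some lists and not in others at Il6, Il18, Tlr2, and Irf5. Il6 encodes interleukin-6, a cytokine of acute inflammation and of hematopoietic stress. Its promoter H3K27ac peak was 3.94-fold in WT (percentile 12.9) and 6.58-fold in Tet2-/- cells (49.9), and no peak was called in Ep300Δ/Δ or Ep300Δ/ΔTet2-/- cells, where the nearest lay 59481 and 59443 bp from the start. The call was thus present in both lists with intact Ep300 and absent from both lists with the deletion. Of the 32 members with promoter H3K27ac in both WT and Tet2-/- cells, Il6 was the 1 with this pattern, beside 2.44% of all such promoters.

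The Il6 promoter kept its other marks. H3K4me3 was 12.5-fold in WT, 6.72-fold in Ep300Δ/Δ, 24.1-fold in Tet2-/-, and 10.7-fold in Ep300Δ/ΔTet2-/- cells (percentiles 44.3, 28.7, 65.2, and 45.0), and H3K4me1 was 5.35-, 4.76-, 10.9-, and 5.36-fold (percentiles 66.9, 55.6, 96.7, and 64.0). For each of the 3 marks the Tet2-/- list held the top Il6 value. The H3K27ac peaks covered positions 9 to 568 after the start in WT and 188 to 626 in Tet2-/- cells, downstream of the NF-kB motif. The WT peak was weak: with peaks limited to a −log10 q of at least 5, or with lists of equal length, it was no longer called, while the loss between Tet2-/- and Ep300Δ/ΔTet2-/- cells held under each of the 6 alternatives. No distal H3K27ac peak lay in the Il6 window in any list.

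**Figure D2:**
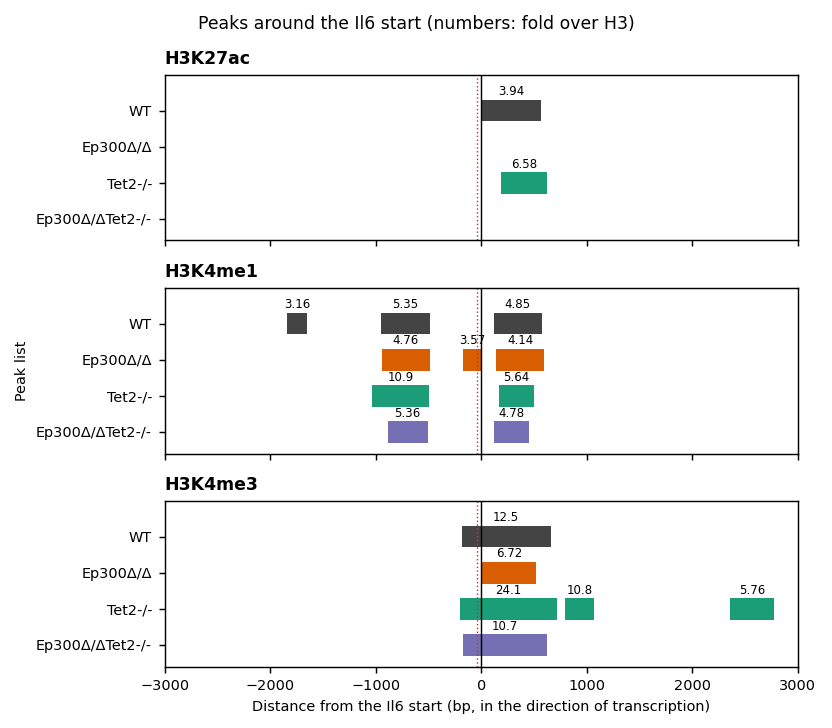
Peaks of the 3 marks within 3000 bp of the Il6 start, by distance in the direction of transcription, with 1 row per genotype. Bars span each peak, numbers above them give the fold over H3, the black line is the start, and the dotted line is the NF-kB consensus; H3K27ac bars appear in the WT (3.94-fold) and Tet2-/- (6.58-fold) rows, whereas H3K4me1 and H3K4me3 bars appear in all 4.

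The promoter sequence of Il6 is shown because its acetylation differed with the Ep300 genotype, beside that of Nfkbia, acetylated in every list, and that of Cxcl2, acetylated in none. The sequences come from RefSeq (GRCm38.p6), run 5′ to 3′ along the gene's strand, end at the base before the start (for Cxcl2, before the GENCODE start), and have the NF-kB consensus in capitals.
Il6, chr5:30012864-30013113, plus strand: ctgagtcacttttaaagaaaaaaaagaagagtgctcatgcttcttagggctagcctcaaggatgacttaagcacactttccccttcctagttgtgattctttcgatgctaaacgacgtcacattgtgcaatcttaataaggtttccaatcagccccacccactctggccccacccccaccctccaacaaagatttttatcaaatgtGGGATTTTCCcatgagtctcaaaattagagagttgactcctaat
Nfkbia, chr12:55492648-55492897, minus strand: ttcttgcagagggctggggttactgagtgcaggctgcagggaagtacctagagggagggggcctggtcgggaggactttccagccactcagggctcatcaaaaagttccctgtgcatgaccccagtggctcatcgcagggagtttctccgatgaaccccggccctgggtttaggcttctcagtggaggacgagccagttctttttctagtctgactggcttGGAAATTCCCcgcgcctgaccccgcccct
Cxcl2, chr5:90903649-90903870, plus strand: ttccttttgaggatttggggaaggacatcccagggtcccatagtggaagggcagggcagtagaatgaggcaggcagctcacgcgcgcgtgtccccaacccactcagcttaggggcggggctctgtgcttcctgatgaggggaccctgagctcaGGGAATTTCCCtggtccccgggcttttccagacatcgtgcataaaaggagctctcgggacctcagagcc
All 3 hold the consensus, and they differed in H3K27ac: 2 of 4 lists at Il6, all 4 at Nfkbia, and none at Cxcl2.

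The NF-kB consensus was searched, on both strands, in the 250 bases before the start of every RefSeq promoter. Of the 40 members, 35 had at least 1 promoter in the table, 42 promoters in all. The consensus was found in 14 of the 42 member promoters (33.3%), at 12 genes, beside 3.90% of all 32851 promoters; the members are known NF-kB genes, so this share is given as a description. The AP-1 motif TGANTCA was found in 6 of 42 (6.75% of all promoters), the IRF consensus in 2 (2.98%), the PU.1 motif GAGGAAGT in 1 (2.44%), and the C/EBP motif TTGCGCAA in 1 (0.164%). A match is a description of the letters and not of binding.

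Il18 encodes an inflammasome-processed cytokine. Its promoter H3K27ac was weak where called, at 3.68-fold in WT, 4.39-fold in Tet2-/-, and 3.33-fold in Ep300Δ/ΔTet2-/- cells (percentiles 9.14, 21.8, and 5.02), and was absent in Ep300Δ/Δ cells, where the nearest peak was 21061 bp away. The start of Bco2 lies within 1000 bp, so the peak cannot be given to either gene. Tlr2, the receptor of bacterial lipoproteins, had 4.49-fold in WT, 6.69-fold in Ep300Δ/Δ, and 7.92-fold in Ep300Δ/ΔTet2-/- cells (percentiles 21.4, 57.2, and 57.8) and no peak in Tet2-/- cells. Irf5, a transcription factor downstream of Toll-like receptors, had 4.73-, 3.58-, and 4.43-fold in the same 3 lists (percentiles 25.1, 14.2, and 18.8) and none in Tet2-/- cells, although a peak was called there when any annotated transcript start was used. The WT and Ep300Δ/Δ values came from peaks before the start. The Ep300Δ/ΔTet2-/- peak was a different one, 466 bp after the start. Within 3000 bp of the Irf5 start, peaks stood at percentiles 77.4, 64.9, 42.5, and 59.7 in the 4 lists. All 4 genes had H3K4me3 at the promoter in all 4 lists.

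Counted as changes, WT to Ep300Δ/Δ cells lost promoter H3K27ac at 2 of 34 members (Il6 and Il18), beside 7.71% of all genes, and gained it at 0 of 6 (2.34%). Tet2-/- to Ep300Δ/ΔTet2-/- cells lost it at 1 of 32 (Il6; 10.2%) and gained it at 2 of 8 (Tlr2 and Irf5; 2.39%). WT to Tet2-/- cells lost 2 of 34 (Tlr2 and Irf5; 6.34%) and gained 0 of 6 (2.95%), and Ep300Δ/Δ to Ep300Δ/ΔTet2-/- cells lost 0 of 32 (8.70%) and gained 1 of 8 (Il18; 2.77%). The pairs share lists, so these counts are not independent of each other. The numbers of members lost after Ep300 deletion, 2 and 1, changed to between 1 and 4 under the alternatives, and the numbers gained, 0 and 2, to between 0 and 3 and between 1 and 6. With lists of equal length 1 was lost and 3 gained from WT to Ep300Δ/Δ cells (Tlr2, Tnip1, and Traf1 gained), so more members were then gained than lost, and 1 was lost and 6 gained on the Tet2-/- background. The share of all genes was not computed under these alternatives, so the counts cannot be read as particular to the members. With a −log10 q of at least 5 the members lost from WT to Ep300Δ/Δ cells were Casp1, Ccl4, Irf5, and Tlr4, and with lists of equal length Tlr4, so neither Il6 nor Il18 was among them.

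The 6 genes Il1r1, Il1a, Il1b, Cxcl2, Ptgs2, and Irf4 had no promoter H3K27ac in any list, beside 55.1% of all protein-coding genes. Cxcl2, a neutrophil-attracting chemokine, carried H3K4me3 of 5.80-, 4.77-, 3.54-, and 4.69-fold in WT, Ep300Δ/Δ, Tet2-/-, and Ep300Δ/ΔTet2-/- cells (percentiles 5.18 to 20.7), and H3K4me1 of 8.09-, 7.64-, 5.43-, and 10.2-fold (percentiles 92.9, 92.1, 56.8, and 97.4). Its nearest H3K27ac peak lay between 27074 and 27661 bp away. Ptgs2, which encodes the prostaglandin synthase COX-2, carried H3K4me3 of 14.9-, 14.2-, 15.9-, and 9.54-fold (percentiles 47.9, 48.7, 52.8, and 42.0), with its nearest H3K27ac peak 64761 to 65133 bp away. Irf4, a lymphoid IRF factor, carried H3K4me3 of 7.48-, 13.3-, 6.38-, and 7.91-fold (percentiles 30.3, 47.0, 27.2, and 36.8), and Il1r1, which encodes the signaling IL-1 receptor, 5.80-, 6.32-, 7.70-, and 7.76-fold (percentiles 20.8, 26.7, 33.4, and 36.2). Thus 4 of the 36 members with H3K4me3 in all 4 lists had H3K27ac in none, beside 20.3% of all such promoters. Il1b, which encodes interleukin-1β, had H3K4me1 alone (4.85-, 7.03-, 5.14-, and 5.23-fold, at percentiles 56.5, 88.2, 51.6, and 61.9), and its nearest H3K27ac peak lay 1825, 2552, 2255, and 72989 bp from the start. The last of these was in Ep300Δ/ΔTet2-/- cells, the list with no H3K27ac near the gene. Il1a, which encodes interleukin-1α, had none of the 3 marks at its promoter in any list.

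Among the effectors with H3K27ac throughout, Tnf had a promoter peak of 12.3-, 5.68-, 5.86-, and 4.83-fold (percentiles 77.6, 47.5, 42.9, and 24.3), so WT was highest and Ep300Δ/ΔTet2-/- lowest. These peaks overlapped one another across the lists. The lists other than Ep300Δ/ΔTet2-/- also held a second promoter peak closer to the start. The nearest peak thus lay 0, 297, 0, and 795 bp from the start. Ccl3, which encodes the chemokine MIP-1α, had 14.8-, 7.42-, 5.26-, and 6.13-fold (percentiles 83.1, 62.8, 35.4, and 41.8), and Ccl4, which encodes MIP-1β, 7.09-, 3.57-, 8.74-, and 6.56-fold (percentiles 53.5, 13.6, 65.2, and 46.1). The Tet2-/- value of Ccl3 came from a peak before the start, while its peak over the start was 3.22-fold (percentile 5.01). The other Ccl3 values came from peaks over the start. At Ccl4 the Ep300Δ/ΔTet2-/- value came from a peak further downstream than in the other lists. Icam1, an adhesion molecule of endothelial and myeloid cells, had 7.37-, 10.1-, 4.98-, and 4.21-fold (percentiles 55.4, 76.1, 31.5, and 15.3). The inflammasome genes Nlrp3 (the sensor) and Casp1 (the protease) had 5.74- to 10.1-fold (percentiles 37.1 to 75.9) and 3.88- to 6.01-fold (percentiles 13.7 to 39.7). Irf1, an interferon-induced factor, had 23.8-, 18.9-, 9.75-, and 8.33-fold (percentiles 93.0, 92.9, 69.8, and 60.6), lower in rank in both lists without Tet2. The adaptor genes Irak2, Traf1, and Traf6 had a promoter peak in every list, at percentiles 57.8 to 79.4, 39.8 to 80.4, and 24.0 to 88.3. Birc3, which encodes the ubiquitin ligase cIAP2, had 16.9-, 15.6-, 13.3-, and 31.8-fold (percentiles 86.6, 89.0, 80.9, and 97.1), highest in Ep300Δ/ΔTet2-/- cells.

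H3K4me3 was lost at Ccl4 from WT to Ep300Δ/Δ cells, 1 of 38 members (1.49% of all genes), and at Nlrp3 from Tet2-/- to Ep300Δ/ΔTet2-/- cells, also 1 of 38 (1.63%). Ccl4 had 4.94-fold in WT, 12.1-fold in Tet2-/-, and 4.95-fold in Ep300Δ/ΔTet2-/- cells (percentiles 14.4, 46.2, and 20.1), and Nlrp3 4.62-, 2.89-, and 2.57-fold in the 3 lists that held it (percentiles 11.6, 1.67, and 0.628), all of these below the middle of their lists. H3K4me1 at promoters was lost at 1 of 34 members (Tlr2; 11.7%) and gained at 3 of 6 (Rel, Tlr4, and Irak2; 12.8%) from WT to Ep300Δ/Δ cells. From Tet2-/- to Ep300Δ/ΔTet2-/- cells it was lost at 1 of 34 (Irak2; 11.2%) and gained at 4 of 6 (Rel, Nfkbiz, Tlr2, and Casp1; 14.7%). In both pairs more members gained than lost the mark, on denominators of 6. The gained Rel peak of Ep300Δ/Δ cells (percentile 2.45) had a −log10 q of 0.673. That of Tlr2 in Ep300Δ/ΔTet2-/- cells (percentile 2.52) had 1.29. Both q values lay above the stated threshold, and those of the other gained peaks below it. The H3K4me1 promoter changes were not recomputed under the alternatives.

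Distal H3K27ac calls differed more between the 4 lists than promoter calls did. The member windows held 79 distal H3K27ac peaks in WT, 49 in Ep300Δ/Δ, 51 in Tet2-/-, and 27 in Ep300Δ/ΔTet2-/- cells. At least 1 was present at 22, 18, 25, and 16 members, beside 29.5%, 20.4%, 25.9%, and 18.5% of all genes. Distal H3K4me1 varied less, with 307, 275, 296, and 271 peaks at 37, 36, 37, and 36 members (65.2%, 63.5%, 65.0%, and 65.0% of all genes). All H3K27ac peaks of the windows, promoters included, covered 146, 99.7, 106, and 90.4 kb with a mean fold of 10.1, 8.42, 9.38, and 9.90, and made up 0.668%, 0.691%, 0.632%, and 0.638% of their lists. The WT list, with the most distal peaks, was also the list with the most acetylated monocyte and neutrophil marker promoters (3 of 5 and 2 of 6), and the part of such cells in the distal counts was not tested.

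**Figure D3:**
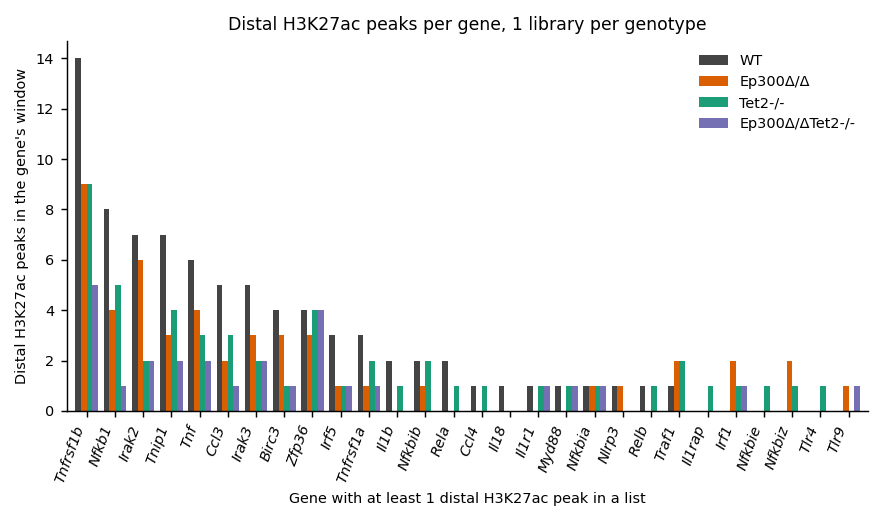
Number of distal H3K27ac peaks (vertical axis) in the window of each gene with at least 1 such peak in a list, with 1 bar per genotype. WT bars are tallest for the genes with the most peaks, Tnfrsf1b (14, 9, 9, and 5 in WT, Ep300Δ/Δ, Tet2-/-, and Ep300Δ/ΔTet2-/- cells) and Nfkb1 (8, 4, 5, and 1), while Zfp36 (4, 3, 4, and 4) and Nfkbia (1 in each) hardly differ.

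After Ep300 deletion, 19 of the 22 members with a distal H3K27ac peak in WT had fewer, beside 69.5% of all such genes, and on the Tet2-/- background 16 of 25 had fewer, beside 67.6%. The genes with the most peaks in WT were Tnfrsf1b with 14, Nfkb1 with 8, Tnip1 and Irak2 with 7 each, Tnf with 6, Irak3 and Ccl3 with 5 each, and Zfp36 and Birc3 with 4 each. For WT, Ep300Δ/Δ, Tet2-/-, and Ep300Δ/ΔTet2-/- cells, Tnip1 had 7, 3, 4, and 2 peaks, Irak2 7, 6, 2, and 2, and Tnf 6, 4, 3, and 2. Irak3, which encodes the inhibitory kinase IRAK-M, had 5, 3, 2, and 2, Ccl3 had 5, 2, 3, and 1, and Birc3 had 4, 3, 1, and 1. A Ccl3 peak of Tet2-/- cells, 1065 to 1238 bp after the start, overlapped peaks of the other lists that were counted at the promoter. Similarly, an Nfkb1 peak of Ep300Δ/Δ cells overlapped WT and Tet2-/- peaks counted at a transcript start. Part of these differences is thus one of class. Zfp36 stood apart from these 8 others with 4, 3, 4, and 4. More peaks after Ep300 deletion were counted at Nfkbiz, Tlr9, Traf1, and Irf1 on the WT background and at Tlr9 on the Tet2-/- background, beside 4.68% and 4.64% of all genes. At Nfkbiz 1 of the 2 Ep300Δ/Δ peaks (chr16:55820454-55820915) overlapped peaks of the 3 other lists, of which those of WT and Ep300Δ/ΔTet2-/- cells reached within 1000 bp of a transcript start and were counted there.

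The lost regions were counted by merging the lists of a pair. Of the 77 distal H3K27ac regions at members in WT, 47 had no peak in Ep300Δ/Δ cells (61.0%, 95% exact interval 49.2% to 72.0%), beside 62.0% of distal regions at all protein-coding genes. Of the 46 in Tet2-/- cells, 26 had none in Ep300Δ/ΔTet2-/- cells (56.5%, 41.1% to 71.1%), beside 61.8%. The intervals cover counting error only. Gained regions made up 7 of 37 in Ep300Δ/Δ (18.9%; 21.9% of all) and 7 of 27 in Ep300Δ/ΔTet2-/- cells (25.9%; 30.6%). The members' shares stood near the background in each case, so nothing particular to these genes was seen in the loss of distal H3K27ac. Between lists with the same Ep300 state, 38 of 75 regions (50.7%) of WT were missing in Tet2-/- cells, beside 55.5%, and 24 of 44 (54.5%) of Ep300Δ/Δ were missing in Ep300Δ/ΔTet2-/- cells, beside 52.6%. In the 58 other pathway genes, 52 of 88 (59.1%) and 17 of 39 (43.6%) regions were lost after Ep300 deletion on the 2 backgrounds. The gained share from WT to Ep300Δ/Δ cells fell to 5.88% with peaks of a −log10 q of at least 5 (8.84% of all) and to 6.38% when a peak within 500 bp counted as shared (12.3% of all), and rose to 8 of 27 (29.6%; 29.2% of all) with lists of equal length. From Tet2-/- to Ep300Δ/ΔTet2-/- cells it fell to 4 of 31 (12.9%; 21.7% of all) with 500 bp.

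**Figure D4:**
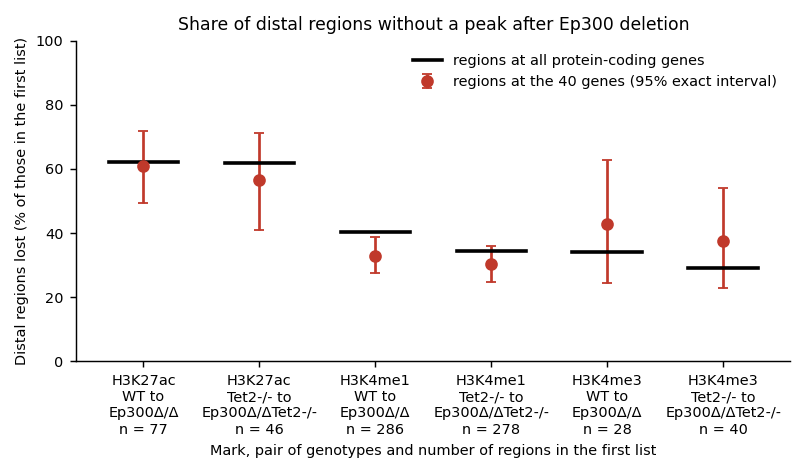
Share of distal regions of the first list with no peak in the second (vertical axis, percent) for 3 marks and 2 pairs of genotypes. Points are regions at the 40 genes with their 95% exact interval, black lines regions at all protein-coding genes; the H3K27ac points (61.0% and 56.5%) lie close to their lines (62.0% and 61.8%), and the WT to Ep300Δ/Δ H3K4me1 point (32.9%) lies below its line (40.3%).

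The share of distal regions lost was lower for H3K4me1 than for H3K27ac, with 94 of 286 from WT to Ep300Δ/Δ (32.9%, 27.5% to 38.6%; 40.3% of all) and 84 of 278 from Tet2-/- to Ep300Δ/ΔTet2-/- cells (30.2%, 24.9% to 36.0%; 34.3%). Distal H3K4me3 regions were few, with 12 of 28 (42.9%; 34.1% of all) and 15 of 40 (37.5%; 29.2%) lost. When a peak within 500 bp counted as shared, the H3K4me1 shares were 17.6% and 18.7% (25.6% and 21.9% of all). Within gene bodies alone 1 of 8 H3K4me3 regions (12.5%) was lost from WT to Ep300Δ/Δ cells, beside 37.6% of all, while on the Tet2-/- background 6 of 14 (42.9%) were, beside 32.3%. Of the 47 H3K27ac regions lost from WT to Ep300Δ/Δ cells, 43 overlapped an H3K4me1 peak in WT, 42 in Ep300Δ/Δ, and 40 in both. The share with the mark in both was 85.1%, beside 75.8% of the lost regions at all protein-coding genes. Of the 26 lost from Tet2-/- to Ep300Δ/ΔTet2-/- cells, 25 did so in both (96.2%, beside 79.0%). Lost regions ranked lower than the shared ones in the list that held them, with a median percentile of 31.0 against 52.5 in WT and 25.9 against 52.9 in Tet2-/- cells, and the same held at all protein-coding genes (25.1 against 54.6, and 24.1 against 51.7).

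By role, the NF-kB subunits lost 10 of 11 distal regions from WT to Ep300Δ/Δ and 7 of 7 from Tet2-/- to Ep300Δ/ΔTet2-/- cells, most of them within Nfkb1, beside 62.0% and 61.8% of regions at all genes. Of the 7, 1 in an Nfkb1 intron had an Ep300Δ/ΔTet2-/- peak 183 bp away, and a region merged over the 4 lists was called there in all of them. Inhibitors and feedback genes lost 10 of 19 and 4 of 12, receptors 9 of 17 and 7 of 13, adaptors 7 of 13 and 4 of 6, cytokines and effectors 9 of 13 and 3 of 6, and IRF factors 2 of 3 and 1 of 2. The inflammasome genes had 1 region in WT, which was kept, and none in Tet2-/- cells. These are counts over a few genes each, and regions within 1 gene share their source.

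Merged over the 4 H3K27ac lists, the windows held 89 distal regions, of which 41 lay in introns, 27 between genes, and 21 overlapped an exon; for 55 of them the nearest protein-coding start was the member's own. Of the 89, 29 were called in WT alone (32.6%, beside 32.3% of all), 18 in all 4 lists (20.2%, beside 14.4%), and 11 in both lists with intact Ep300 and in neither of the others (12.4%, beside 9.09%). Of the 26 regions lost on the Tet2-/- background, 18 had a WT peak, beside 2626 of 4778 at all protein-coding genes. Of these 18, 11 were also lost from WT to Ep300Δ/Δ cells (61.1%, beside 54.5% at all protein-coding genes). Of the 20 kept on the Tet2-/- background, all had a WT peak, beside 2632 of 2954 at all protein-coding genes. From WT to Ep300Δ/Δ cells 2 of the 20 were lost, beside 399 of the 2632.

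The strongest lost regions lay at Irak3, Ccl3, and Nfkb1 on the WT background. The Irak3 region, in an intron 8.96 kb from the start (chr10:120192871-120193464), was 9.09-fold in WT (percentile 66.0). The Ccl3 region, between genes 20.6 kb from the start (chr11:83628574-83628846), was 8.34-fold in WT (61.9), and the Nfkb1 region, in an intron 4.96 kb from the start (chr3:135686477-135686705), was 7.49-fold (56.7). All 3 had H3K27ac in WT and Tet2-/- cells, in neither list with Ep300 deleted, and H3K4me1 in all 4 genotypes. The Nfkb1 region shared its fold with a Ccl3 region (chr11:83641226-83641518) that was called in WT alone, so the place of the former among the 3 was a tie. On the Tet2-/- background they were the Ccl3 region again (chr11:83628546-83628817, 8.03-fold, percentile 61.2), a Birc3 region that overlaps an exon (chr9:7868489-7868756, 7.72-fold, 59.2), and an intergenic region 16.8 kb from the Tnf start and 1522 bp from that of Gm16181 (chr17:35218324-35219312, 7.26-fold, 55.9). The Birc3 and Tnf regions had H3K27ac in the other 3 genotypes, Ep300Δ/Δ included, and all 3 regions had H3K4me1 in every genotype. The protein-coding start nearest to the Irak3 region was that of Tmbim4, and the one nearest to the Ccl3 region that of Rpl9-ps1.

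The strongest gained regions ranked lower in their lists than these lost ones. From WT to Ep300Δ/Δ cells they lay at Irak2 (chr6:113677748-113678080, 5.65-fold, percentile 47.2), Irf1 (chr11:53785810-53786491, 4.42-fold, 29.2), and an Nfkb1 intron (chr3:135629403-135629580, 4.17-fold, 24.8). From Tet2-/- to Ep300Δ/ΔTet2-/- cells they lay at Irak3 (chr10:120125590-120125838, 6.23-fold, 42.5), Tlr9 (chr9:106230257-106230487, 5.77-fold, 37.5), and an Nfkb1 intron (chr3:135628235-135628477, 5.39-fold, 32.0). This Nfkb1 region also had H3K27ac in WT and Ep300Δ/Δ cells, and the Irf1 region in both lists without Tet2. The Tet2-/- list held a peak 183 bp from this Nfkb1 region, and the WT list held peaks 208 bp from the gained Irak2 region and 252 bp from the other gained Nfkb1 region, so these 3 gains rested on peaks that did not overlap. The protein-coding start nearest to the gained regions of Irak2, Irf1, and Irak3 was that of Tatdn2, Gm17334, and Helb.

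**Figure D5:**
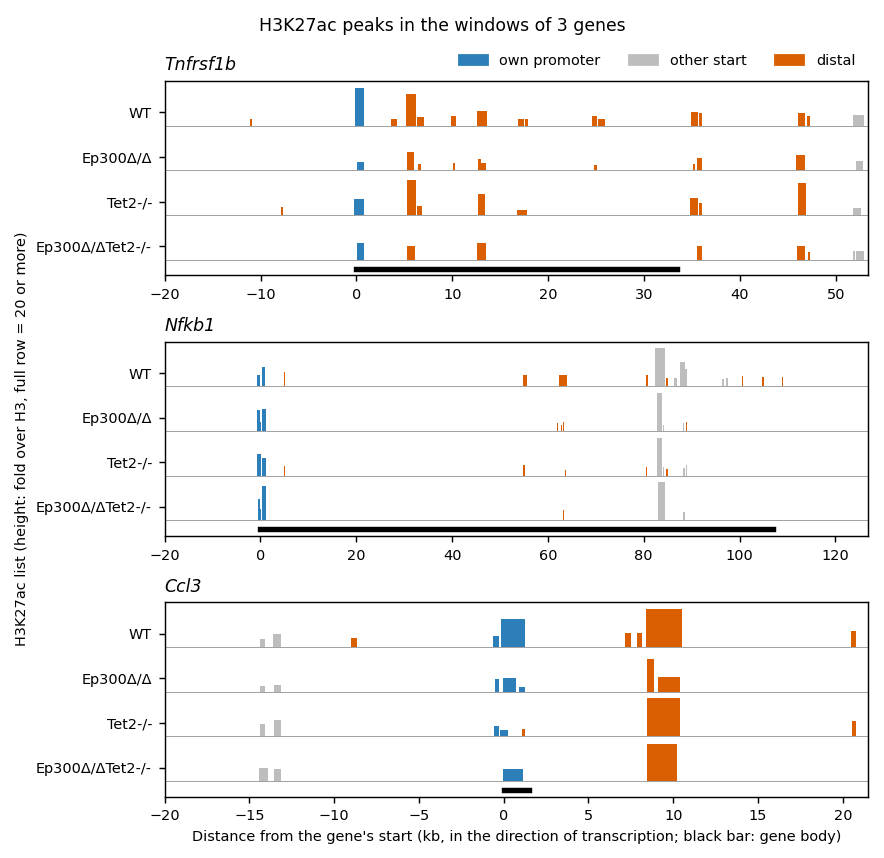
H3K27ac peaks in the windows of Tnfrsf1b, Nfkb1, and Ccl3, by distance from the start in kb, with 1 row per genotype. Bar height is the fold over H3 up to 20, color marks own promoter, other starts, and distal peaks, and the black bar is the gene body; Tnfrsf1b keeps distal peaks in all rows (14, 9, 9, and 5), Nfkb1 has 8, 4, 5, and 1, and Ccl3 keeps 1 strong region in each row.

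Among distal regions in the member windows, the one with the highest fold in each list, between genes at Ccl3 (chr11:83638852-83640941), was called in all 4 lists, at 51.3-fold in WT (percentile 99.3), 17.3-fold in Ep300Δ/Δ (91.3), 22.0-fold in Tet2-/- (93.0), and 19.7-fold in Ep300Δ/ΔTet2-/- cells (90.5). At Tnfrsf1b, an intronic region (chr4:145240635-145241658) was also called in all 4, at 16.5-, 9.49-, 18.6-, and 7.11-fold (percentiles 86.0, 73.6, 89.9, and 51.4). At Irak3 a region overlapping an exon (chr10:120140719-120141670) was 12.2-, 10.4-, 20.5-, and 11.5-fold (77.3, 77.0, 91.8, and 74.8). All 3 regions ranked above the middle of every list.

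The NF-kB consensus was found at few distal H3K27ac summits. Within 100 bp of the summit it was found at 4 of 79 distal member peaks in WT (5.06%), 4 of 49 in Ep300Δ/Δ (8.16%), 4 of 51 in Tet2-/- (7.84%), and 1 of 27 in Ep300Δ/ΔTet2-/- cells (3.70%), beside 2.83%, 3.26%, 3.15%, and 3.01% of all distal H3K27ac peaks near protein-coding genes in the same lists. The member share was the higher in each list, on few peaks, and the difference was not tested. The AP-1 motif was found at 5, 3, 5, and 3 member peaks (6.04%, 5.67%, 5.79%, and 6.28% of all), the PU.1 motif at 1, 2, 1, and 2 (1.83%, 1.73%, 2.20%, and 2.32%), and the IRF and C/EBP motifs at 0 (IRF: 1.93%, 2.20%, 1.82%, and 2.52% of all). The C/EBP motif was at 0.0261%, 0.0158%, 0.0250%, and 0.0223% of all. None of the 12 strongest lost and gained regions held the NF-kB consensus within 100 bp of its summit. Zfp36 was the member with the consensus near a distal summit in all 4 lists, in a region that reaches the last exon and has its summits beyond the 3′ end of the gene, with H3K27ac of 12.8-, 7.45-, 5.51-, and 5.00-fold (percentiles 78.8, 63.1, 38.4, and 26.7). Its sequence and that of a Tnfrsf1b intron called in all 4 lists are shown, chosen after the values were seen, as the summit base with 50 bases on either side, on the plus strand of GRCm38 with the consensus in capitals.
Zfp36, WT summit, chr7:28375884-28375984: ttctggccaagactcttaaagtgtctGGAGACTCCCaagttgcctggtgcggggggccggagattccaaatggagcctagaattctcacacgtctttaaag
Tnfrsf1b, Ep300Δ/Δ summit, chr4:145233981-145234081: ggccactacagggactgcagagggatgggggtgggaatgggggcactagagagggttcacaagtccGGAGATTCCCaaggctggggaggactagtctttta
Both are regions kept after Ep300 deletion on both backgrounds, with the Tnfrsf1b region at 7.61-, 6.09-, 10.9-, and 9.02-fold (percentiles 57.5, 51.8, 74.0, and 64.2). At the Tnfrsf1b region the consensus lay within 100 bp of the summit in Ep300Δ/Δ and Tet2-/- cells. The WT and Ep300Δ/ΔTet2-/- summits lay elsewhere in the region, without the consensus within that distance.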

How the data were processed

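Deposited narrow peak lists of H3K27ac, H3K4me1, and H3K4me3 from 4 genotypes (12 of the 20 samples) were analysed; the other 8 samples were not analysed here. Per the methods and the submitters' processing notes, the authors used Cutadapt 1.15 for trimming and BWA 0.7.13 for alignment to the mm10 genome, removed duplicates with Picard, called peaks against H3 with MACS2 2.1.1.20160309, and kept peaks found in pseudo-replicates at a stated q of 0.05. The paper's methods name Drosophila chromatin as a spike-in control and describe no scaling of the peak lists by it. The deposited columns hold a score and a −log10 p-value, neither of them used, the ratio (fold) over H3, and the −log10 q value. The authors normalized the fold within each library, so it is no amount to compare between lists, and lists were compared by its percentile within a list. A list records calls alone, so a weaker signal and a shallower library can each remove a call.

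Peaks were assigned to genes of GENCODE M21 by an overlap of at least 1 bp. Distal regions of a pair of genotypes were merged, and a region of the first list with no peak in the second was called lost. With 1 library per group no test was run; exact binomial (Clopper-Pearson) intervals at 95% cover counting error only. Motifs were searched on both strands, overlapping matches included, 100 bp on either side of distal summits and 250 bases before RefSeq starts; the AP-1 motif reads the same on both strands. Genes with the most distal peaks in WT (8, with ties), genes whose promoter call differed, and the 3 regions of highest fold lost or gained per pair were named by a fixed rule, and the other values follow the members' roles. Members and lists were chosen with earlier results of these data known. Alternatives changed the promoter interval, the start, the q limit, the list length, and the overlap. Scripts used Python 3.11.15, numpy 2.4.6, scipy 1.17.1, and pysam 0.24.0 and were tested on simulated data.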

Additional observations from a re-analysis of the deposited data

Results flagged for a closer look

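At 2 genes the number of distal H3K27ac peaks moved in opposite directions with Ep300 deletion on the 2 Tet2 backgrounds. Nfkbiz had 0 peaks in WT and 2 in Ep300Δ/Δ cells, a change of 2, and 1 in Tet2-/- and 0 in Ep300Δ/ΔTet2-/- cells, a change of -1. All 4 lists held overlapping peaks at one of these places (chr16:55820454-55820915 in Ep300Δ/Δ and chr16:55820614-55820881 in Tet2-/- cells), which in WT and Ep300Δ/ΔTet2-/- cells reached within 1000 bp of a transcript start and so were not counted as distal; the Tet2-/- change rested on this class alone. The second Ep300Δ/Δ peak (chr16:55819695-55819900) had no overlapping peak in another list. Traf1 had 1 and 2 peaks, a change of 1, and 2 and 0 peaks, a change of -2; none of the peaks counted there overlapped one of the Ep300Δ/ΔTet2-/- list. Each value comes from 1 library, and the difference between the backgrounds was not tested.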

How the results depend on the processing

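Of 114 recomputed values over 18 results, 89 stayed within the limits set (1.5 times the reported count, or the exact 95% interval of a share) and 25 moved. The number of members with a promoter H3K27ac call stayed within 1.5 times the reported one in all 24 cases. The few promoter changes moved most, and the share of all genes was not computed for them under the alternatives. With a −log10 q of at least 5, members lost numbered 4 and 4 and members gained 1 and 1 (WT to Ep300Δ/Δ, then Tet2-/- to Ep300Δ/ΔTet2-/-). With lists of equal length, 1 was lost from WT to Ep300Δ/Δ cells, and 3 and 6 were gained. With an overlap of at least 50% of the promoter or peak, 1 was gained from WT to Ep300Δ/Δ cells and 3 were lost on the Tet2-/- background, where a promoter of 500 bp gave 3 lost, one of 3000 bp gave 2 lost and 1 gained, and any transcript start gave 1 gained. Distal H3K27ac lost from WT to Ep300Δ/Δ cells was 72.9% with the q limit (72.8% of all), 48.6% with lists of equal length (48.0%), and 45.7% with 500 bp counted as shared (50.2%), and the gained share was 5.88% with the q limit (8.84%) and 6.38% with 500 bp (12.3%). These intervals are wide: within them, the gained share was 29.6% with lists of equal length (29.2%) against 18.9% reported, and, on the Tet2-/- background, 12.9% with 500 bp (21.7%) against 25.9%. On the Tet2-/- background the lost share was 38.7% with lists of equal length (43.4%). Distal H3K4me1 lost was 44.6% and 39.5% with the q limit (53.6% and 46.7% of all), 17.6% and 18.7% with 500 bp (25.6% and 21.9%), and, on the Tet2-/- background, 36.1% with an overlap of 50% of the region (40.8%). Distal H3K4me3 lost from WT to Ep300Δ/Δ cells was 12.5% in gene bodies alone (37.6%). The cause was not tested. No paired analysis was possible because each genotype and mark had 1 library and no test was run. Read depth is unknown, so a missing call is no measure of absent signal.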
